A study of Arabidopsis thaliana with 6 samples.

Results

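The genes described here encode cyclin-dependent kinase (CDK) inhibitors of Arabidopsis thaliana: KRP1 to KRP7, the Kip-related proteins, with SIAMESE (SIM) and its relative SMR1, also called LGO. They were taken by locus, as members of these families, and are 9 of the 33602 loci counted. RNA sequencing counts were available for sorted leaf cells of 3 transgenic lines in the Columbia ecotype, with 2 libraries per line. The constructs, each with a YFP tag, were myrBRXp:myrBRX-YFP (called myrBRX here), BRXL2p:BRXL2-YFP (BRXL2) and BRXp:BRX-YFP (the libraries labelled BRX). BRX and BRXL2 are related proteins, and the series describes the sorted cells as stomatal lineage ground cells, the larger daughters of asymmetric divisions in the leaf epidermis. All plants were 9 days past germination, the tissue was true leaves, and no untransformed line was analysed here. For all libraries the labels give 2 days of cold and growth at 22 °C with 16 h of light and 8 h of dark. How many independent transformants stood behind each construct, whether a mutant background was used and how the sorting gate was set is not stated in the labels.

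KRP proteins bind complexes of CDKA and D-type cyclins through a carboxy-terminal region related to that of the animal inhibitor p27Kip1, and they hold back entry into the cell cycle. SIM and SMR1 belong to a separate plant family, whose members block mitotic kinase activity while DNA replication goes on. Cells then copy their genome without dividing, a process called endoreduplication. Loss of SIM gives multicellular trichomes (leaf hairs), and loss of SMR1 removes the giant endoreduplicated cells of the sepal epidermis. In the stomatal lineage, the family member SMR4 slows the cycle of precursor cells before their last division.

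Some facts of the whole series bear on what follows. The libraries held 25817906 to 42113178 counts. BRX itself, the gene named in 2 of the constructs, stood at 32.3 and 72.7 CPM in myrBRX, 22.7 and 31.9 CPM in BRXL2 and 6.10 and 11.7 CPM in the libraries labelled BRX. The label BRX was thus not borne out by the level of its gene, but the differences in BRX did not pass (edgeR adjusted p among the 3 lines = 0.308). BRXL2 itself stood at 1570 and 1378 CPM in the BRXL2 line, against 21.5 and 12.6 CPM in myrBRX and 150 and 95.5 CPM in the libraries labelled BRX (edgeR adjusted p among the 3 lines = 0.045), as its label says. CPM are counts relative to the size of each library after scaling of the libraries, and the values of a gene are given for the first and then the second library of a line. Every stomatal lineage marker looked at (9 genes, among them SPCH, TMM and POLAR) was present in each library, except MUTE. MUTE had 3 and 2 counts in myrBRX, 629 and 416 counts in BRXL2 and 25 and 0 counts in the libraries labelled BRX. Phloem markers (6 genes) summed to 779.6 and 353.6 CPM in BRXL2, against 5.15 and 8.75 CPM in myrBRX and 13.9 and 5.03 CPM in the libraries labelled BRX. Both BRXL2 libraries lay above all others for 5 of these genes. SUC2 did not share this: its mean was lowest in BRXL2, and its libraries overlapped between all lines. The 5 trichome markers summed to at most 2.74 CPM in any library, and TRY was at 0 in all 6. Markers of the G2 and M phases (7 genes) summed to 104 CPM in each myrBRX library, 835 and 275 CPM in BRXL2 and 2373 and 742 CPM in the libraries labelled BRX. Markers of S phase (5 genes) summed to 72.3 and 55.7 CPM in myrBRX and 116 and 54.0 CPM in BRXL2. In the libraries labelled BRX the S phase sums were 164 and 44.0 CPM, and all lines overlapped. In such bulk samples, fewer cells of a type and less RNA per cell cannot be told apart.

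The 9 inhibitor genes differed widely in level, and SIM was nearly absent. Levels of different genes were compared as CPM per kilobase of merged exon length. In myrBRX the order by mean was KRP3, KRP5, KRP7, KRP4, KRP6, SMR1, KRP2, KRP1 and SIM. The highest of these was KRP3, with 32.3 ± 42.2 CPM per kilobase in myrBRX, and the next was KRP5, with 9.30 ± 2.92 (SD, n = 2). In BRXL2 the order was KRP3, KRP7, KRP6, KRP4, KRP5, KRP1, SMR1, KRP2 and SIM, led by KRP3 at 7.97 ± 9.44 CPM per kilobase. In the libraries labelled BRX it was KRP1, KRP3, KRP7, KRP4, KRP6 and KRP5, led by KRP1 at 13.1 ± 16.1 CPM per kilobase, and KRP2, SIM and SMR1 had 0 counts there. Most neighbours in these orders were not separated: the ranges of their 2 libraries overlapped for 5 of 8 neighbouring pairs in myrBRX, 7 of 8 in BRXL2 and 6 of 8 in the libraries labelled BRX.

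The make-up of this inhibitor pool differed from library to library, also within a line. KRP3 made up 68.9% of the summed CPM per kilobase in the second myrBRX library but 7.76% in the first, where KRP5 led with 23.2%. In BRXL2, KRP3 led the first library with 39.8% and KRP7 led the second with 42.4%. In the libraries labelled BRX, KRP1 led the first with 43.5% and KRP4 the second with 52.2%. SIM and SMR1 together stayed a small part, and SMR1 reached at most 5.74%, in the second BRXL2 library. The summed level was 31.2 and 90.1 CPM per kilobase in myrBRX, 36.8 and 22.6 in BRXL2 and 56.4 and 17.7 in the libraries labelled BRX, and these ranges overlapped between all lines.

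**Figure D1:**
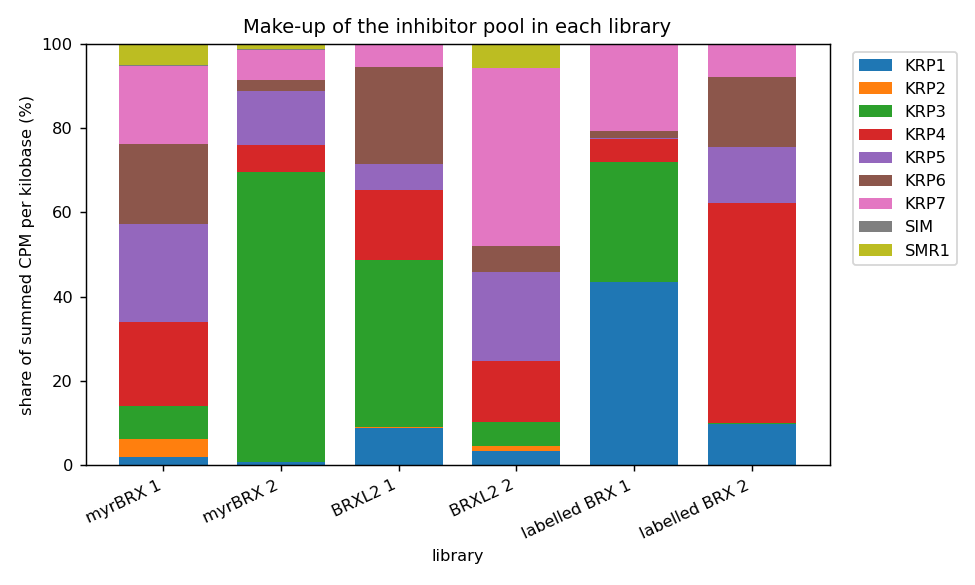
Share of each inhibitor gene in the summed CPM per kilobase (%, vertical axis) in the 6 libraries (horizontal axis, bars add to 100%). KRP3 took 68.9% in the second myrBRX library, KRP1 took 43.5% in the first library labelled BRX, and the leading gene differed between the libraries of each line.

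No inhibitor gene passed the test in any comparison. The test was edgeR's quasi-likelihood test over 18174 loci, with p-values adjusted by Benjamini-Hochberg and a threshold of 0.05. Of the 9 genes, 8 passed the filter on low counts and SIM did not. Between myrBRX and BRXL2 0 of 8 passed, against 0.0495% of all loci tested. Between myrBRX and the libraries labelled BRX 0 of 8 passed, against 0% of all loci, and between BRXL2 and the libraries labelled BRX 0 of 8, against 0.0935%. A further test for any difference among the 3 lines called 0 of 8, against 0.226%. At an unadjusted p under 0.05 there were 3 of 8 inhibitor genes between myrBRX and the libraries labelled BRX, namely KRP1, KRP2 and SMR1. KRP2 and SMR1 had 0 counts in both libraries labelled BRX and passed the filter only through the other lines. The 3 of 8 therefore shows no excess over all loci, of which 14.2% were below that value. The other 2 comparisons had 0 of 8 below it (12.4% of loci for myrBRX against BRXL2, 8.85% for BRXL2 against the libraries labelled BRX), and the test among the 3 lines had KRP1 alone, against 14.6% of loci. DESeq2 called 0, 1 and 0 of the 8 in the order myrBRX against BRXL2, myrBRX against the libraries labelled BRX, and BRXL2 against them, against 6.2%, 7.91% and 3.54% of all loci. In the test among the 3 lines DESeq2 called KRP1, against 7.99% of all loci. limma-voom called 0 inhibitor genes and 0% of loci throughout. Comparisons that use the same libraries are not independent of each other.

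**Figure D2:**
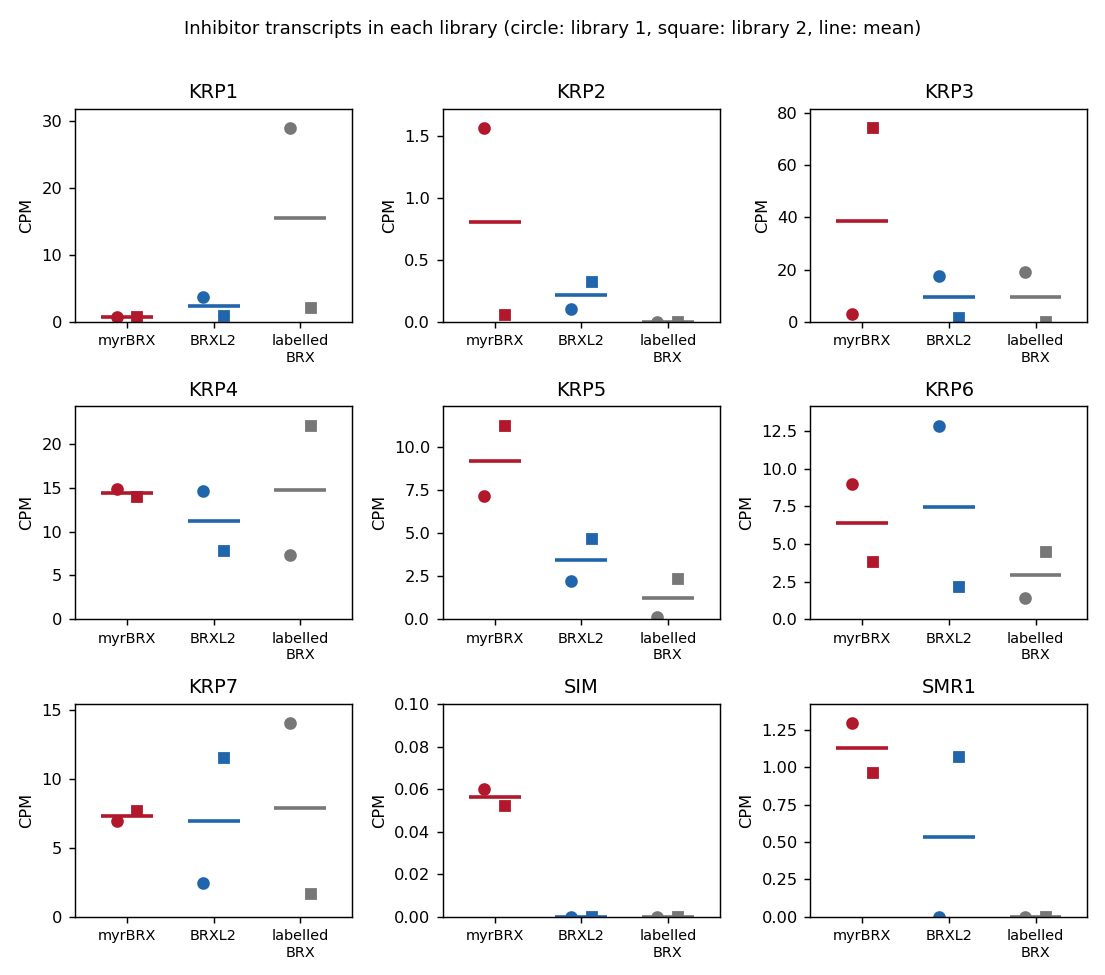
CPM (vertical axis, from 0, with its own scale for each gene) of the 9 inhibitor genes by line (horizontal axis), with a circle for library 1, a square for library 2 and a line for their mean. KRP1 was at 0.662 and 0.729 CPM in the myrBRX libraries and reached 28.8 CPM in the first library labelled BRX, while KRP5 was highest in the myrBRX libraries, at 7.13 and 11.2 CPM.

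KRP1 (AT2G23430), also named ICK1, binds CDKA and CYCD3;1 and slows division and growth when overproduced. It had 0.662 and 0.729 CPM in myrBRX, 3.76 and 0.883 CPM in BRXL2 and 28.8 and 2.05 CPM in the libraries labelled BRX. Both myrBRX libraries lay below all 4 others, and the first library labelled BRX stood far above the rest. Set against the libraries labelled BRX, myrBRX had a log2 fold change of -4.47 ± 1.54 (SE; edgeR unadjusted p = 0.0131, adjusted p = 0.263). DESeq2 called this difference, at -4.53 (adjusted p = 0.0116), and over the other settings tried the adjusted p was 0.0568 to 0.79. Without the first library labelled BRX this value was -1.55. Between myrBRX and BRXL2 it was -1.74 ± 1.38 (edgeR adjusted p = 0.641), and -0.34 without the first BRXL2 library. For BRXL2 against the libraries labelled BRX it was -2.73 ± 1.41 (edgeR adjusted p = 0.604), and without the first library labelled BRX the value was 0.18. Of the 7 G2 and M phase markers, 5 had the same order of line means as KRP1, and CYCB1;2 and CDKB2;2 were highest in BRXL2. AUR2 alone made up 1595 CPM of their sum in the first library labelled BRX. The order of line means of KRP1 was not particular to these markers. Genes of other lists, such as DEL1, ACR4 and the epidermis marker PDF1, had it too, and its share over all loci was not counted. The part of the G2 and M phase markers in the pattern of KRP1 was not tested.

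KRP5 (AT3G24810), also named ICK3, promotes endoreduplication and cell enlargement in root and hypocotyl. It ran the other way, with 7.13 and 11.2 CPM in myrBRX, 2.21 and 4.66 CPM in BRXL2 and 0.122 and 2.31 CPM in the libraries labelled BRX. Both myrBRX libraries lay above all others, whereas the BRXL2 libraries overlapped those labelled BRX. Set against the libraries labelled BRX, myrBRX had a KRP5 log2 fold change of 2.91 ± 1.50 (edgeR adjusted p = 0.388), and it was 1.99 without the first of these and 6.20 without the second. It was 1.42 ± 1.42 for myrBRX against BRXL2 (edgeR adjusted p = 0.723) and 1.49 ± 1.43 for BRXL2 against the libraries labelled BRX (0.826). These differences did not pass, and the fitted direction for KRP5 was the same in every comparison under each setting tried. Of 5 guard cell markers, TGG1, MYB60 and OST1 (3 genes) had the same order of line means as KRP5, and KAT1 and KAT2 were highest in BRXL2. The 5 together summed to 948 and 431 CPM in myrBRX, 525 and 121 CPM in BRXL2 and 88.7 and 120.5 CPM in the libraries labelled BRX, of which TGG1 alone made up 891 and 385 CPM in myrBRX, 490 and 93.6 CPM in BRXL2 and 82.5 and 115 CPM in the libraries labelled BRX. The order of line means of KRP5 was not particular to these markers. Genes of other lists, such as RHF1A, SKP2B and ATML1, had it too, and its share over all loci was not counted. The part of the guard cell markers in the pattern of KRP5 was not tested.

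KRP1 and KRP5 were opposed across the libraries. Over the 6 libraries their log2 CPM had a Pearson r of -0.98 and a Spearman rho of -0.94. Without the first library labelled BRX and the first BRXL2 library, which lay farthest from the median of KRP1, r was -0.90 over the 4 libraries left. This pair was picked from 28 pairs after the values were seen. The libraries of a line share its construct, and the value is given as a description.

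KRP3 (AT5G48820), also named ICK6, had the widest spread of any inhibitor gene between the libraries of a line, reached in the libraries labelled BRX. It stood at 2.89 and 74.2 CPM in myrBRX, 17.5 and 1.55 CPM in BRXL2 and 19.2 and 0.0331 CPM in the libraries labelled BRX, where the second library held 1 count and the first 628. Each line thus had a library with much KRP3 and a library with little, and all lines overlapped. The fitted log2 fold change was 2.02 ± 1.85 for myrBRX against BRXL2 (edgeR adjusted p = 0.691), 2.00 ± 1.85 for myrBRX against the libraries labelled BRX (0.637) and -0.011 ± 1.79 for BRXL2 against them (1). Without the second myrBRX library the first of these was -1.73 and the second -1.78. Without the first library labelled BRX the last was 8.03.

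KRP4 and KRP7 had similar means in every line. KRP4 (AT2G32710) links cell size to cycle entry in the shoot apical meristem. It had 14.9 and 13.9 CPM in myrBRX, 14.6 and 7.82 CPM in BRXL2 and 7.35 and 22.1 CPM in the libraries labelled BRX. Its log2 fold change was 0.36 ± 0.91 for myrBRX against BRXL2, -0.030 ± 0.91 for myrBRX against the libraries labelled BRX and -0.39 ± 0.91 for BRXL2 against them. KRP7 (AT1G49620), also named ICK5 and a target of the F-box protein FBL17 in pollen, had 6.95 and 7.71 CPM in myrBRX, 2.45 and 11.5 CPM in BRXL2 and 14.1 and 1.69 CPM in the libraries labelled BRX. Its log2 fold changes in the same order were 0.069 ± 1.23, -0.10 ± 1.23 and -0.17 ± 1.23. The edgeR adjusted p was 0.91 to 0.996 for both genes, which shows no equality: an SE near 1 log2 unit leaves room for several-fold differences. The myrBRX libraries lay close together for both genes and inside the range of the libraries labelled BRX.

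KRP6 (AT3G19150), which is degraded through the RING proteins RHF1A and RHF2A when gametes form, had 9.00 and 3.83 CPM in myrBRX, 12.8 and 2.11 CPM in BRXL2 and 1.43 and 4.46 CPM in the libraries labelled BRX. All lines overlapped. Its log2 fold change was -0.22 ± 1.26 for myrBRX against BRXL2 (edgeR adjusted p = 0.96), 1.12 ± 1.28 for myrBRX against the libraries labelled BRX (0.713) and 1.34 ± 1.29 for BRXL2 against them (0.826). Without the first BRXL2 library the first of these was 1.60 and the last -0.48.

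KRP2 (AT3G50630), which restrains lateral root initiation and helps set the onset of endoreduplication in leaves, was near the limit of detection. It had 52 and 2 counts in myrBRX, 5 and 12 counts in BRXL2 and 0 counts in both libraries labelled BRX. A floor of 3 counts per library corresponded to 0.0638 to 0.0992 CPM. The mean in myrBRX was at least 8.48-fold higher than in the libraries labelled BRX (edgeR unadjusted p = 0.0482, adjusted p = 0.35), but it rested on the first myrBRX library at 1.56 CPM, the second being at 0.0521 CPM, under the floor. In BRXL2 it was at least 2.24-fold higher than in the libraries labelled BRX (edgeR adjusted p = 0.637). Between myrBRX and BRXL2 the KRP2 log2 fold change was 1.91 ± 2.55 (0.802), and -1.96 without the first myrBRX library.

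SMR1 (AT3G10525) was detected in both myrBRX libraries and in neither library labelled BRX. It had 43 and 37 counts in myrBRX, 0 and 40 counts in BRXL2 and 0 counts in both libraries labelled BRX, which is 1.29 and 0.964 CPM, 0 and 1.07 CPM, and 0 CPM. The myrBRX libraries and the second BRXL2 library were thus alike, and the first BRXL2 library was like those labelled BRX. The mean in myrBRX was at least 11.8-fold higher than in the libraries labelled BRX (edgeR unadjusted p = 0.0437, adjusted p = 0.338). In BRXL2 the mean was at least 5.61-fold higher than in the libraries labelled BRX (edgeR adjusted p = 0.584), which rested on the second BRXL2 library alone. Between myrBRX and BRXL2 the SMR1 log2 fold change was 1.08 ± 2.52 (edgeR adjusted p = 0.901).

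SIM (AT5G04470) had 2 counts in each myrBRX library and 0 in the other 4, all under the floor, so no fold is given. Of the trichome regulators looked at, GL1 had 6 counts in the first myrBRX library and 0 elsewhere, and GL3 was at most 0.496 CPM. EGL3 was higher, with 4.72 and 1.20 CPM in myrBRX, 64.0 and 7.01 CPM in BRXL2 and 5.13 and 10.98 CPM in the libraries labelled BRX.

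**Figure D3:**
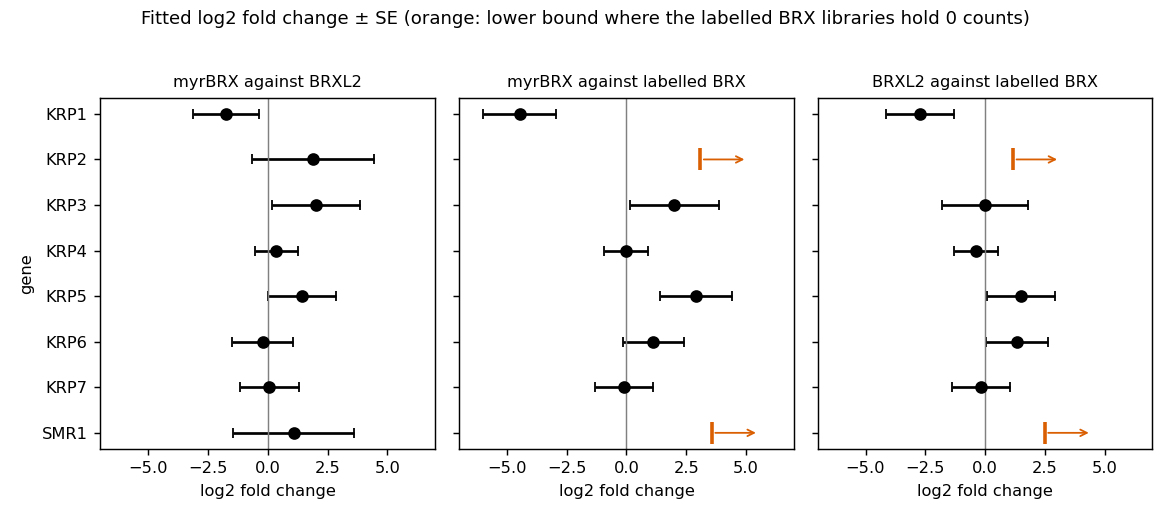
Fitted log2 fold change (horizontal axis) with its SE for the 8 inhibitor genes tested (vertical axis) in the 3 comparisons; orange marks with arrows are lower bounds, used where both libraries labelled BRX held 0 counts. KRP1 lay farthest below 0, at -4.47 ± 1.54 for myrBRX against the libraries labelled BRX, and no gene passed the test.

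The number of inhibitor genes whose libraries did not overlap between lines was read against the same share over all loci. Between myrBRX and the libraries labelled BRX this held for 4 of the 8 tested, with KRP2, KRP5 and SMR1 higher and KRP1 lower, against 49.1% of all loci (26.7% higher and 22.4% lower). Between myrBRX and BRXL2 it held for KRP5, which was higher, and KRP1, which was lower, against 49% of all loci (24.3% higher and 24.7% lower). Between BRXL2 and the libraries labelled BRX it held for KRP2 alone, higher, against 33.2% (18.3% higher and 14.9% lower). KRP2 and SMR1 had 0 counts in both libraries labelled BRX and passed the filter only through the other lines. Against the libraries labelled BRX they could therefore not be lower. For myrBRX, the separation of KRP2 also rested on 2 counts in the second library, under the floor. The median log2 fold change of the 8 genes was 0.72 for myrBRX against BRXL2, 1.56 for myrBRX against the libraries labelled BRX and 0.67 (0.58 with genes at 0 set to their bound) for BRXL2 against them. Over all loci tested these medians were -0.15, -0.03 and 0.03. The 1.56 lay between the values of KRP6 (1.12) and KRP3 (2.00), and that of KRP3 was -1.78 without the second myrBRX library. It also counts KRP2 and SMR1, so it does not show a rise of the inhibitor genes as a group.

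The spread between the libraries of a line was set against that of other loci. Differences over 4-fold between the libraries of a line were found for 2 of 8 inhibitor genes in myrBRX (KRP3 and KRP2), against 16.7% of all loci tested and 22.2% of the 11386 loci within the range of mean log2 CPM of the inhibitor genes. There were 5 of 8 in BRXL2 (SMR1, KRP3, KRP6, KRP7 and KRP1), against 29.1% of all loci and 36.2% of those at the same level. In the libraries labelled BRX there were 4 of 8 (KRP3, KRP1, KRP5 and KRP7), against 35.8% and 44.2%. The median absolute log2 ratio was 0.53 in myrBRX, 2.12 in BRXL2 and 2.31 in the libraries labelled BRX, with KRP2 and SMR1 counted as 0 in the last because they had no reads. Over all loci it was 0.81, 1.19 and 1.39, and over the loci at the same level it was 1.01, 1.45 and 1.72. The inhibitor median was thus below both in myrBRX and above both in the other 2 groups. Over all loci tested, log2 CPM correlated at 0.880 between the myrBRX libraries, 0.765 between the BRXL2 libraries and 0.737 between those labelled BRX. The second library labelled BRX correlated more closely with the myrBRX libraries (0.800 and 0.766) than with the first of its own group.

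**Figure D4:**
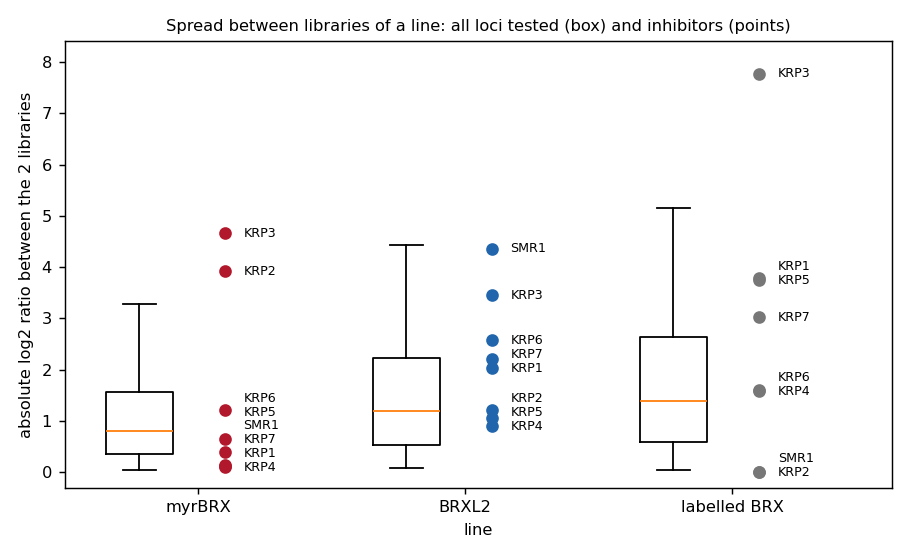
Absolute log2 ratio of CPM between the 2 libraries of a line (vertical axis) for each line (horizontal axis), with a box for all 18174 loci tested (median, quartiles, and whiskers at the 5th and 95th percentiles) and points for the 8 inhibitor genes tested. KRP3 lay highest in myrBRX and in the libraries labelled BRX, and SMR1 in BRXL2.

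Among the other SIAMESE-related genes, 9 loci were looked at and 4 were tested, of which 0 passed in any comparison by edgeR, 0 had an unadjusted p under 0.05 and 0 were called by DESeq2 or limma-voom. AT5G40460 and AT1G10690, annotated as CDK inhibitors, were the most abundant. AT5G40460 had 9.99 and 17.8 CPM in myrBRX, 1.30 and 10.6 CPM in BRXL2 and 2.53 and 25.1 CPM in the libraries labelled BRX. AT1G10690 had 6.08 and 18.4 CPM in myrBRX, 1.43 and 9.66 CPM in BRXL2 and 16.0 and 5.49 CPM in the libraries labelled BRX. Both therefore stood above SMR1 in every library, on the scale of CPM and not per length. SMR4 was low, between 0.231 and 0.763 CPM over the 6 libraries. SMR7, which responds to DNA damage and oxidative stress, had 0 counts in each library, as did AT5G02420, AT1G51355 and AT2G28870. Of lowest p was AT1G08180, with a log2 fold change of 2.92 ± 2.85 for myrBRX against BRXL2 (edgeR adjusted p = 0.713) and 1.27 ± 2.68 for myrBRX against the libraries labelled BRX (0.856). For BRXL2 against the libraries labelled BRX it was AT5G40460, with -1.22 ± 1.24 (0.844).

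The kinases and cyclins that the inhibitors bind were tested in the same fit, and none of 5 CDK genes and 8 D-type cyclin genes passed in any comparison. For myrBRX against BRXL2, 1 CDK gene and 2 cyclin genes had an unadjusted p under 0.05, against 12.4% of all loci, and DESeq2 called 1 of each, against 6.2%. Against the libraries labelled BRX, myrBRX had 2 and 2 below it, against 14.2% of all loci, with 2 CDK genes and 0 cyclin genes called by DESeq2, against 7.91%. BRXL2 against these libraries had 0 of either, against 8.85% and 3.54%. The percentages over all loci are the same for the lists that follow. limma-voom called 0 throughout, for these and for the lists that follow. The lowest p of the CDK genes belonged each time to CDKB2;1, a mitotic kinase gene that is also among the G2 and M phase markers above, which had 11.5 ± 1.14 CPM in myrBRX, 99.6 ± 66.6 in BRXL2 and 226 ± 18 in the libraries labelled BRX (SD, n = 2). Its log2 fold change was -3.11 ± 0.86 for myrBRX against BRXL2 (edgeR adjusted p = 0.225), -4.29 ± 0.91 for myrBRX against the libraries labelled BRX (0.202) and -1.18 ± 0.80 for BRXL2 against them (0.719). The fitted value was negative for all 5 CDK genes between myrBRX and BRXL2, with a median of -1.42, as for 9756 of the 18174 loci tested. Between myrBRX and the libraries labelled BRX it was negative for 4 of 5, with a median of -1.44, as for 9213 loci. CDKA;1, the main target of KRP proteins, had 10.1 and 8.49 CPM in myrBRX, 31.9 and 16.1 CPM in BRXL2 and 11.5 and 39.0 CPM in the libraries labelled BRX. Of the D-type cyclins, which open the G1 phase, 7 of 8 had a negative value for myrBRX against BRXL2 (median -1.43) and 6 of 8 for myrBRX against the libraries labelled BRX (median -1.79). CYCD1;1 had a log2 fold change of -3.84 ± 1.34 for myrBRX against BRXL2 (edgeR adjusted p = 0.294), and CYCD6;1 of -3.14 ± 1.22 for myrBRX against the libraries labelled BRX (0.295). For BRXL2 against these libraries CYCD5;1 had 2.24 ± 1.57 (0.733), with 5 of 8 cyclins positive, as were 9277 of all loci, and a median of 0.54.

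**Figure D5:**
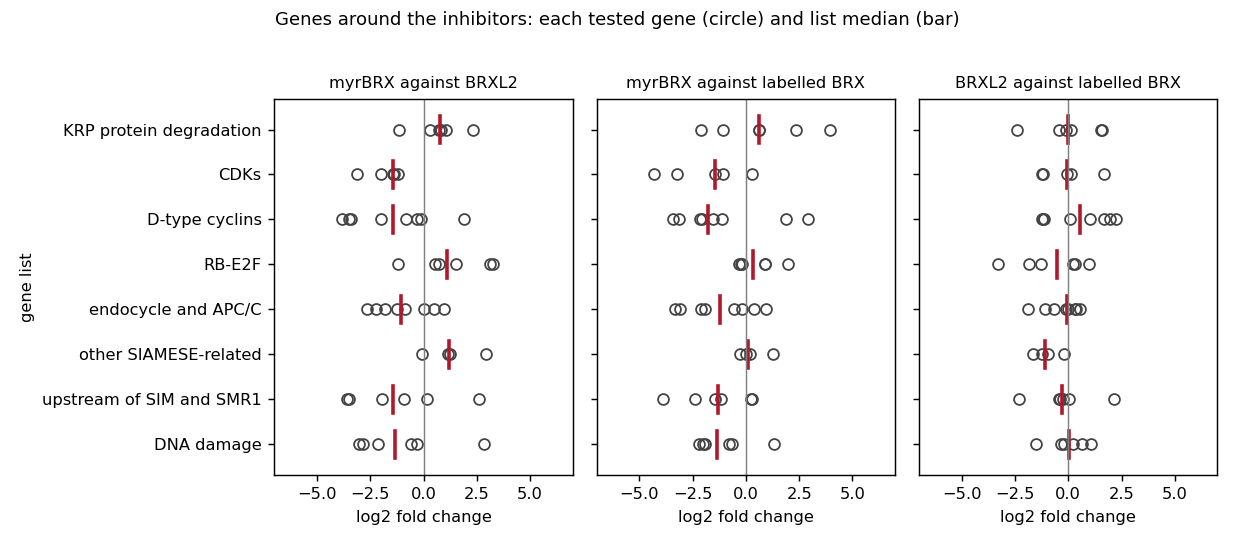
Fitted log2 fold change (horizontal axis) of each tested gene (circles) and the median (bar) of the gene lists around the inhibitors (vertical axis) in the 3 comparisons. CDK genes had a median of -1.42 and D-type cyclins of -1.43 for myrBRX against BRXL2; no gene drawn passed the test.

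Of 6 genes for the breakdown of KRP proteins none passed, and 1, between myrBRX and the libraries labelled BRX, had an unadjusted p under 0.05 and was called by DESeq2, against 14.2% and 7.91% of all loci. RHF1A stood at 50.2 and 67.2 CPM in myrBRX, 42.2 and 24.4 CPM in BRXL2 and 8.97 and 13.9 CPM in the libraries labelled BRX, so that the libraries of the last group lay below all others. Its log2 fold change was 2.36 ± 0.80 for myrBRX against the libraries labelled BRX (edgeR adjusted p = 0.26) and 1.54 ± 0.78 for BRXL2 against them (0.595). SKP2B, an F-box gene whose product targets KRP1, had 16.1 and 8.72 CPM in myrBRX, 0.510 and 4.39 CPM in BRXL2 and 0 and 1.62 CPM in the libraries labelled BRX. Both myrBRX libraries were above all others, and for myrBRX against BRXL2 the log2 fold change was 2.34 ± 1.75 (edgeR adjusted p = 0.62). In this comparison 5 of the 6 genes had a positive value, with a median of 0.77, as had 8415 of all loci. Against the libraries labelled BRX 4 of 6 were positive, with a median of 0.62, as were 8961 of all loci.

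Genes of the endocycle and of the anaphase-promoting complex did not pass either (0 of 8 in each comparison; 2, 3 and 0 at an unadjusted p under 0.05 and 0, 2 and 0 by DESeq2 for myrBRX against BRXL2, myrBRX against the libraries labelled BRX and BRXL2 against them, where all loci had 12.4%, 14.2% and 8.85% unadjusted and 6.2%, 7.91% and 3.54% by DESeq2). The median was -1.05 for myrBRX against BRXL2, -1.23 for myrBRX against the libraries labelled BRX and -0.05 for BRXL2 against them. OSD1, an inhibitor of that complex, had 2.97 ± 0.264 CPM in myrBRX and 18.7 ± 1.1 in BRXL2 (SD, n = 2; log2 fold change -2.65 ± 0.96, edgeR adjusted p = 0.301). CCS52B, an activator made in mitotic cells, had 93.8 ± 23 CPM in myrBRX and 934 ± 702 in the libraries labelled BRX (-3.32 ± 1.00, adjusted p = 0.23). CCS52A2, an activator that acts in endoreduplication and meristem maintenance, had 26.2 and 21.2 CPM in myrBRX, 14.9 and 9.69 CPM in BRXL2 and 8.36 and 16.1 CPM in the libraries labelled BRX. DEL1, which represses entry into the endocycle, had 4.06 and 4.61 CPM in myrBRX, 15.7 and 4.74 CPM in BRXL2 and 68.0 and 7.11 CPM in the libraries labelled BRX; its log2 fold change for BRXL2 against the last was -1.88 ± 1.09 (edgeR adjusted p = 0.651).

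In the RB-E2F list, which controls entry into S phase, 0 of 6 passed; 1 had an unadjusted p under 0.05 in each comparison of myrBRX (12.4% of all loci against BRXL2, 14.2% against the libraries labelled BRX), and DESeq2 called 1 between myrBRX and BRXL2 (6.2%). E2FB stood at 84.7 and 64.8 CPM in myrBRX, 7.51 and 8.35 CPM in BRXL2 and 6.26 and 32.1 CPM in the libraries labelled BRX, and both myrBRX libraries were above all others. Its log2 fold change was 3.24 ± 0.94 for myrBRX against BRXL2 (edgeR adjusted p = 0.235) and 1.96 ± 0.89 for myrBRX against the libraries labelled BRX (0.35). DPA had -3.30 ± 1.77 for BRXL2 against the libraries labelled BRX (0.616). Of the regulators upstream of SIM and SMR1, 6 of 7 were tested and 0 passed, with 1 at an unadjusted p under 0.05 in each comparison of myrBRX and 1 called by DESeq2 between myrBRX and BRXL2, against the same shares of all loci. ATML1, a homeodomain factor of the epidermis that acts ahead of SMR1 in giant cells, differed little in mean, with 107 and 132 CPM in myrBRX, 120 and 90.1 CPM in BRXL2 and 106 and 95.8 CPM in the libraries labelled BRX. The receptor kinase gene ACR4 had a log2 fold change of -2.38 ± 0.91 for myrBRX against the libraries labelled BRX (edgeR adjusted p = 0.291). EGL3, a bHLH gene of trichome fate, had -3.58 ± 1.22 for myrBRX against BRXL2 (0.286) and 2.14 ± 1.15 for BRXL2 against the libraries labelled BRX (0.616). Of 6 DNA damage genes 0 passed, with 2 at an unadjusted p under 0.05 and 1 called by DESeq2 between myrBRX and BRXL2, and 1 and 0 between myrBRX and the libraries labelled BRX, against those shares and, in the last case, 7.91% by DESeq2. The kinase gene ATM had -2.84 ± 0.91 for myrBRX against BRXL2 (0.26) and -2.19 ± 0.88 for myrBRX against the libraries labelled BRX (0.308), and SOG1 had -1.52 ± 1.14 for BRXL2 against them (0.755).

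The gene whose log2 CPM followed each inhibitor most closely over the 6 libraries was looked for among 4080 loci with a symbol and a mean log2 CPM of at least 3. For KRP1 this was DEL1, with a Pearson r of 0.994. For KRP5 it was GEM, at 0.998, with 95 loci above 0.95, and for SMR1 it was ABF4, at 0.994. HSP70T-2 was nearest to KRP2, at 0.998, ATSLY1 to KRP3, at 0.979, and ATPI4K ALPHA to KRP4, at 0.97. CID4 was nearest to KRP6, at 0.991, and AMP1 to KRP7, at 0.98. With 6 libraries and this many candidates such values are a description of these libraries only.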

How the data were processed

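The deposited files hold raw counts per locus, 1 library per table; the submitters' processing notes name Bowtie2 and TAIR10. How the authors counted, with which strand setting, and what they did with reads of several alignments is not stated there, so antisense reads may be included. Per the labels, about 20000 sorted cells gave each RNA, and 20 ng of it went into amplification (NuGEN Ovation, V2).

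Whether a line's 2 libraries are from separate plants is not in the labels, so each p measures the spread between these libraries, which may be technical. The libraries of a line were not copies, with a chi-square per locus of 533 to 815.

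Loci were filtered with filterByExpr (minimum count 10), scaled with TMM factors and tested with edgeR 4.0.16 under R 4.3.3 (glmQLFit and glmQLFTest, 1 coefficient per line, all 6 libraries, 3 residual degrees of freedom). The biological coefficient of variation was 0.884. The SE is the fold change divided by the square root of F. DESeq2 1.42.0 and limma 3.58.1 (voom) were alternatives. Log2 CPM used a prior count of 2. Lengths are merged exons of the TAIR10.1 annotation, which matched 32827 of 33602 loci; the builds differ, and coordinates were not used. Intervals and floors cover counting error only, because reads amplified without molecular tags can repeat a molecule.

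The rule for the inhibitor genes uses gene identity and no measured value, but they and the gene lists were chosen with earlier results of these data known. All 9 inhibitor genes are named. Of each list other than the cell type markers, genes past the threshold or else that of lowest p in each comparison are named. The markers were not named by this rule, and the phloem genes APL, SEOa and SEOR1 among them passed for myrBRX against BRXL2. For BRXL2 against the libraries labelled BRX, APL and SEOa passed. Any other list gene was picked with its values in view. Of 115 list entries 105 were matched by name, 6 were kept by locus and 4 were left out, since the annotation does not give their name.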

Additional observations from a re-analysis of the deposited data

How the results depend on the processing

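Among the inhibitor genes tested, the count called stayed at 0 in each comparison under every setting tried except DESeq2. DESeq2 called 1, KRP1, between myrBRX and the libraries labelled BRX and in the test among the 3 lines. Leaving out each library in turn gave 0 in every case. Some settings tested fewer inhibitor genes. The stricter filter left 5 to test, without KRP1, KRP2 and SMR1, the genes at an unadjusted edgeR p under 0.05 between myrBRX and the libraries labelled BRX. With the compared libraries alone, 6 were tested for BRXL2 against the libraries labelled BRX and 7 for myrBRX against them. A count of 0 there says nothing of the genes left out. Over all loci the calls depended strongly on the setting, and the cause was not tested. For myrBRX against BRXL2 there were 9 calls, against 5 with RLE factors, 5 with upper-quartile factors, 657 without a filter, 0 with a stricter filter (1726 at an unadjusted p under 0.05), 1126 with DESeq2, 0 with limma-voom (2285 unadjusted), 26 with the newer quasi-likelihood fit, 22 with the compared libraries alone and 24 to 119 with a library left out. For myrBRX against the libraries labelled BRX there were 0 calls (2578 unadjusted), against 724 without a filter, 1438 with DESeq2, 2 with the newer fit and 1 to 327 with a library left out. For BRXL2 against the libraries labelled BRX there were 17, against 403 without a filter, 0 with the stricter filter (1057 unadjusted), 644 with DESeq2, 0 with limma-voom (1310 unadjusted), 0 with the compared libraries alone (1106 unadjusted) and 6 to 221 with a library left out. Among the 3 lines there were 41, against 1423 without a filter, 0 with the stricter filter (1958 unadjusted), 1453 with DESeq2, 0 with limma-voom (2227 unadjusted), 173 with the newer fit and 130 to 661 with a library left out.

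With the replicate number as a block, edgeR called 42, 29 and 33 loci for myrBRX against BRXL2, myrBRX against the libraries labelled BRX and BRXL2 against them, 266 among the 3 lines, and 0 inhibitor genes in each. The libraries share only a number: the deviations of same-numbered libraries correlated at 0.121, 0.0581 and 0.127 in these comparisons.

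Of 228 single-gene values under settings that kept all libraries compared, 8 changed sign, each from a small value. For BRXL2 against the libraries labelled BRX, KRP3 was at 0.060 with upper-quartile factors, 2.46 with limma-voom and 0.67 with the replicate block, and KRP7 at 0.011 with limma-voom. For myrBRX against the libraries labelled BRX, KRP4 was at 0.19 and KRP7 at 0.55 with limma-voom, and KRP4 at 0.018 with the block. For myrBRX against BRXL2, KRP6 was at 0.059 with limma-voom. With a library left out, 18 of 144 values changed sign and that of SMR1 for BRXL2 against the libraries labelled BRX went to 0 without the second BRXL2 library. For BRXL2 against the libraries labelled BRX the ranges were -4.12 to 0.18 for KRP1, -2.62 to 8.03 for KRP3, -0.98 to 0.61 for KRP4, -0.48 to 2.38 for KRP6, -1.69 to 2.05 for KRP7 and 0 to 8.21 for SMR1. For myrBRX against the libraries labelled BRX they were -1.78 to 10.05 for KRP3, -0.61 to 0.98 for KRP4 and -0.93 to 2.12 for KRP7. For myrBRX against BRXL2 they were -1.96 to 2.89 for KRP2, -1.73 to 4.63 for KRP3, -0.011 to 0.89 for KRP4, -0.99 to 1.60 for KRP6 and -0.65 to 1.59 for KRP7. A left-out library leaves its line with 1, which is assumed to vary like the others.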
